A study of Rattus norvegicus with 9 samples.

Results

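The plasminogen activator system is followed here through 6 genes: Plau, Plaur, Plat, Anxa2, Serpine2 and Serpinf1. Its members are the probe sets that the array's platform annotation ties to 1 of these gene symbols and to no other gene. These are 9 of the 31042 probe sets tested, and the 6 genes are among 14217 with a probe set of their own. Plau, Plaur and Anxa2 have 2 probe sets each, and the one with the highest mean over the 9 arrays is given first.

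RNA from rat bladder was measured on 9 Affymetrix arrays, 3 per group, each from the tissue of 1 rat. The tumors were bladder transitional cell carcinomas of female SD (Sprague-Dawley) rats whose bladders had been filled weekly, for 10 weeks, with 20 mg/ml MNU. MNU (N-methyl-N-nitrosourea) alkylates DNA, so these tumors model a cancer driven by a chemical and not by a set mutation. The adjacent samples are tissue called normal by the labels, taken beside the tumors of the same 3 rats, and were thus exposed to MNU too. The normal samples came from 3 separate SD rats that the series design calls normal, although all 9 labels carry the MNU text and an age of 10 weeks. The comparisons ask how the tissues of tumor-bearing rats differ from normal bladder, and whether the tumor differs from its surroundings.

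Plasmin is a serine protease of broad range that dissolves fibrin and degrades matrix proteins, and it is made from the circulating precursor plasminogen. Urokinase (Plau) and tissue-type plasminogen activator (Plat) cut plasminogen. Urokinase works mainly at the cell surface on its receptor (Plaur), and annexin A2 (Anxa2) docks plasminogen and tissue-type activator on the membrane. Serpine2 (protease nexin-1) inhibits urokinase, tissue-type activator, plasmin and thrombin. Serpinf1 (pigment epithelium-derived factor) has the serpin fold but is not known to inhibit a protease, and it is best known for restraining blood vessel growth. Urokinase owes its name to urine, the fluid that the bladder holds.

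The promoters of Plau, Plaur and Anxa2, which were higher in tumors than in normal bladder, and of Serpinf1, which had lower values there, are shown to let their sequences be compared. RefSeq (build GRCr8) gave a promoter for 5 of the 6 members, all but Plat. The 250 bases before each gene's start are printed on the gene's strand, with 3 motifs in capitals wherever they occur on either strand: the AP-1 motif TGANTCA, the GC box GGGCGG and the TATA motif TATAAA. These lie at chr15:3511988-3512237 (minus strand) for Plau, chr1:89181113-89181362 (plus) for Plaur, chr8:78986002-78986251 (plus) for Anxa2 and chr10:60760899-60761148 (minus) for Serpinf1.
Plau: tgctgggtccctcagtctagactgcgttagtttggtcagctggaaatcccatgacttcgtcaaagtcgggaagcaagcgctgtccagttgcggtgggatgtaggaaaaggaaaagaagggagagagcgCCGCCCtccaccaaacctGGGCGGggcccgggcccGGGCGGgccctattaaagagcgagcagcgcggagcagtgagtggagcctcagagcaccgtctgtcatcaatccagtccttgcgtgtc
Plaur: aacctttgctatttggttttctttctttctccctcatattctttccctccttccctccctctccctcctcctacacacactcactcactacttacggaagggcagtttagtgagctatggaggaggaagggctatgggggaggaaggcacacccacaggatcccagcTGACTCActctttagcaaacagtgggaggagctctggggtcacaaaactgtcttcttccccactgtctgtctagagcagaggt
Anxa2: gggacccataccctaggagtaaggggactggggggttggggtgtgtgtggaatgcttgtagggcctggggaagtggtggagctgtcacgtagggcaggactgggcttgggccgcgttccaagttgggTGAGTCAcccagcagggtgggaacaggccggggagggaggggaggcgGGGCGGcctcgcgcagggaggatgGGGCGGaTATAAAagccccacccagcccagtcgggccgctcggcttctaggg
Serpinf1: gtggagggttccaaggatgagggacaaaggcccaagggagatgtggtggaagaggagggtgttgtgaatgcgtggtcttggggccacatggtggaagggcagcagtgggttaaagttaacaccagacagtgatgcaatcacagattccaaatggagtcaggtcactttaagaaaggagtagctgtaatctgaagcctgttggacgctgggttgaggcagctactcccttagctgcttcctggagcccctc
Plaur held 1 AP-1 motif, 83 to 77 bases before the start, and Anxa2 held 1 at 123 to 117 bases. Of 33469 RefSeq promoters of the same length, 6.34% held this motif. GC boxes numbered 3 in Plau, 2 in Anxa2 and 6 in the promoter of Serpine2 (not printed), where 4 of them touch or overlap, and 30.5% of promoters held at least 1. Anxa2 also held 1 TATA motif, found in 12.9% of promoters. No other match of these letters was in the 5 windows, and a match does not show that a factor binds there.

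The arrays had median log2 signals of 6.87 to 7.23, and signals under 50 are called dim. Upk1a and Upk1b, plaque proteins of the urothelial surface that mark bladder, had log2 signals of 11.38 to 13.47 and 13.02 to 14.10 over all 9 arrays. Markers of other tissues moved with the groups. The summed signal of 10 smooth muscle markers stood at 69.3%, 2.09% and 2.46% of the normal mean in tumors 1, 2 and 3, at 32.2%, 9.28% and 4.15% in adjacent samples 1, 2 and 3, and at 98.0% to 103% in normal bladders. That of 10 fibroblast and stroma markers was 77.5%, 8.17% and 18.0% in the tumors, 63.6%, 51.8% and 21.6% in adjacent samples and 98.6% to 102% in normal bladders. The sum of 12 urothelial markers ranged from 118% to 133% in tumors, from 95.4% to 127% in adjacent samples and from 97.9% to 104% in normal bladders. Its members were split: against normal bladder, 4 rose and 2 fell in tumors, and 5 rose and 2 fell in adjacent tissue. The 2 that fell in tumors were Krt20 (log2 fold change -3.82) and Upk1a (-1.31), while Krt5 rose most (3.58). The 7 neutrophil markers measured of 10 summed to 1730% to 9560% in tumors and 2900% to 23500% in adjacent samples, against 80.8% to 112% in normal bladders. Without S100a8 and S100a9, which carried most of that sum, the other 5 summed to 470% to 542%, 310% to 2120% and 67.7% to 126%, in the same order, and 4 of the 7 rose in tumors. In bulk tissue, fewer cells of a type and less RNA per cell cannot be told apart, and the part of these shifts in the results that follow was not tested.

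Urokinase, its receptor, tissue-type activator and annexin A2 were all higher in tumors than in normal bladder. By limma with Benjamini-Hochberg adjustment over all probe sets, 4 of the 6 genes rose and 0 fell on their brighter probe set, whereas 13.6% of all genes rose and 9.95% fell. Of the 9 probe sets, 6 rose (8.88% of all probe sets) and 0 fell (9.08%). The groups did not overlap for these 4 (higher in tumors, as for 25.7% of all genes) nor for Serpinf1 (lower in tumors, as for 20.1%). The median log2 fold change was 1.81 over the 6 members and 0.05 over all genes. These 4 calls held when any 1 of the 6 arrays was left out.

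**Figure D1:**
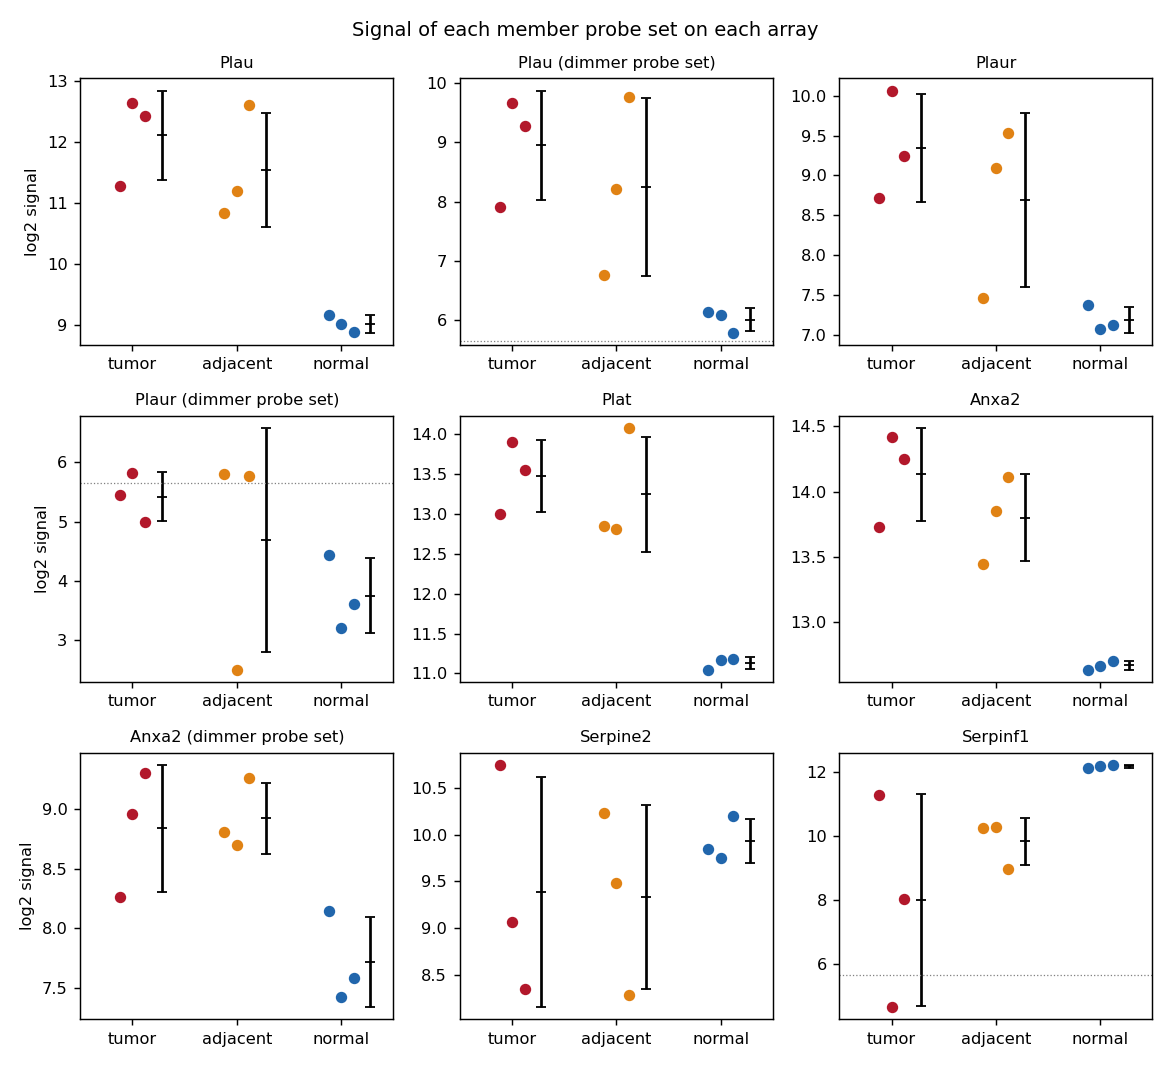
Log2 signal (vertical axes) of the 9 member probe sets in tumors, adjacent tissue and normal bladder; each point is 1 array, bars show mean and SD (n = 3), and a dotted line, where in range, marks a signal of 50. The 3 tumors lie above the 3 normal bladders for Plau, Plaur, Plat and Anxa2, while the tumors spread from 4.65 to 11.27 for Serpinf1.

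Plau, the urokinase gene, changed most of the members that rose. Tumors 1, 2 and 3 read 11.27, 12.64 and 12.42 in log2 signal of Plau, adjacent samples 1, 2 and 3 read 10.83, 11.20 and 12.60, and normal bladders 1, 2 and 3 read 9.17, 9.02 and 8.88. All tumors and all adjacent samples lay above all normal bladders, and tumor 1 was the lowest of the tumors. The mean of the tumors was 12.11 ± 0.73, that of normal bladder 9.02 ± 0.14 (SD, n = 3 arrays each), an 8.49-fold difference (log2 fold change 3.09, SE 0.34, adjusted p = 0.00345 from limma). The dimmer probe set gave a log2 fold change of 2.95 (SE 0.44, adjusted p = 0.00773). Both probe sets thus placed the tumors well above normal bladder.

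Plaur, the urokinase receptor, is carried by leukocytes as well as by epithelial cells. Tumors 1, 2 and 3 read 8.72, 10.07 and 9.24 in log2 signal of Plaur, adjacent samples 1, 2 and 3 read 7.46, 9.09 and 9.54, and normal bladders 1, 2 and 3 read 7.38, 7.08 and 7.12. Adjacent sample 1 was above but close to the normal bladders, while the other adjacent samples lay in the range of the tumors. In tumors Plaur was 4.44-fold higher than in normal bladder (log2 fold change 2.15, SE 0.33, adjusted p = 0.00826 from limma). Its probe set is of a kind that Affymetrix marks as able to bind several transcripts. Its other probe set was dim on all 3 normal bladders and had a tumor mean under 50, so no fold is given (adjusted p = 0.068, and 0.0431 after quantile normalization). S100a9, 1 of the neutrophil markers, was at 10.96, 13.38 and 13.81 in the tumors, at 11.64, 12.01 and 14.76 in adjacent tissue and at 5.29, 7.06 and 5.53 in normal bladder (log2 signal). Of the 7 markers measured, 4 rose in tumors, and Mmp8, Cxcr2 and Camp did not pass. Their log2 fold changes were 0.83, 1.385 and 2.31 (adjusted p = 0.344, 0.0869 and 0.0921 from limma). Whether the Plaur signal came from neutrophils was not tested.

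Plat, the gene of tissue-type activator, is known best from the lining of blood vessels. Tumors 1, 2 and 3 read 13.002, 13.90 and 13.55 in log2 signal of Plat, adjacent samples 1, 2 and 3 read 12.85, 12.81 and 14.09, and normal bladders 1, 2 and 3 read 11.05, 11.17 and 11.18. The gap between the lowest sample of the tumor-bearing rats and the highest normal bladder was wide compared with the spread of the normal bladders (SD 0.07). Plat was 5.11-fold higher in tumors than in normal bladder (log2 fold change 2.35, SE 0.22, adjusted p = 0.00251 from limma). The summed signal of the 9 endothelial markers measured was 104% to 129% of the normal mean in tumors, 102% to 108% in adjacent samples and 93.6% to 107% in normal bladders. Of these markers 3 rose in tumors (Flt1 with a log2 fold change of 2.37, Vwf with 1.59 and Eng with 0.95) and 1 fell (Esam, -0.93). Their part in the Plat result was not tested.

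Anxa2, which docks plasminogen and tissue-type activator, had the smallest rise of the 4 on the brighter probe sets. Tumors 1, 2 and 3 read 13.73, 14.42 and 14.25 in log2 signal of Anxa2, adjacent samples 1, 2 and 3 read 13.44, 13.85 and 14.11, and normal bladders 1, 2 and 3 read 12.63, 12.66 and 12.70. The tumor mean was 14.13 ± 0.36 and the normal mean 12.66 ± 0.03 (SD, n = 3 arrays each), a 2.77-fold difference (log2 fold change 1.47, SE 0.18, adjusted p = 0.00483 from limma). The dimmer probe set had a log2 fold change of 1.11 (SE 0.31, adjusted p = 0.049), and that call was lost without tumor 2 or 3 or any 1 of the normal bladders (adjusted p up to 0.16). S100a10, the partner of annexin A2 in its surface complex, averaged 13.22 ± 0.30 for tumors and 12.93 ± 0.05 for normal bladder in log2 signal, and its difference did not pass (0.29, SE 0.16, adjusted p = 0.275).

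**Figure D2:**
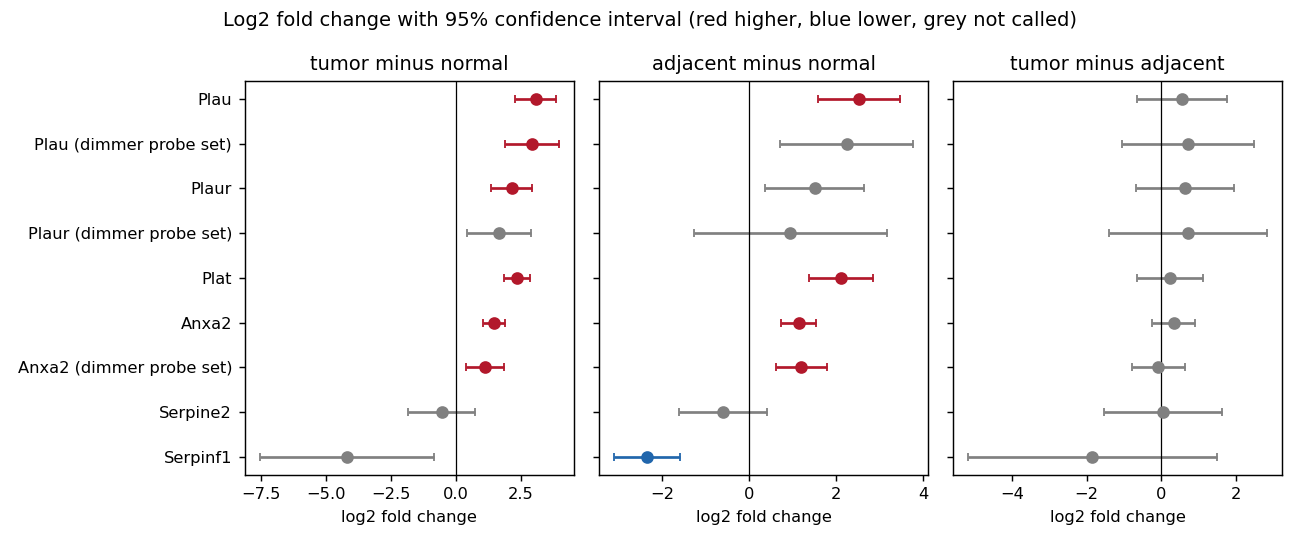
Log2 fold change (horizontal axes, each panel on its own scale) of the 9 member probe sets in tumor minus normal, adjacent minus normal and tumor minus adjacent; points are limma estimates (n = 3 arrays per group), bars 95% confidence intervals, and colours show calls at an adjusted p under 0.05. Every called probe set but that of Serpinf1 in adjacent tissue was higher than in normal bladder, and none was called between tumor and adjacent tissue.

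The serpins of the group did not share this pattern. Tumors 1, 2 and 3 read 11.27, 4.65 and 8.03 in log2 signal of Serpinf1, adjacent samples 1, 2 and 3 read 10.25, 10.27 and 8.97, and normal bladders 1, 2 and 3 read 12.12, 12.20 and 12.21. All 6 samples of tumor-bearing rats lay below all normal bladders, which themselves hardly differed. Tumor 2 was dim (limit log2 5.64), so its share is a bound. Against the normal mean, tumors 1, 2 and 3 held 53.4%, at most 1.08% and 5.65% of the Serpinf1 signal, and adjacent samples 1, 2 and 3 held 26.3%, 26.6% and 10.8%. The tumors spread widely, and the difference did not pass (log2 fold change -4.19, SE 1.43, adjusted p = 0.0866 from limma, and -3.86 with tumor 2 set to the dim limit). Without tumor 1 the log2 fold change was -5.84 and the adjusted p was 0.00151. Tumor 1 was also the tumor with the most smooth muscle and stroma signal (69.3% and 77.5% of normal), and tumor 2, with the least Serpinf1, had the least stroma signal (8.17%). Of the 10 smooth muscle markers 5 fell in tumors and 10 in adjacent tissue, and of the 10 stroma markers 0 and 5 did, none of them dim on all arrays. Col1a1, a collagen gene of that list, read 13.11, 9.55 and 9.91 in tumors 1, 2 and 3 and 13.42, 13.30 and 13.53 in normal bladders.

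Serpine2, an inhibitor of both activators, ran both above and below the normal level among tumors. Tumors 1, 2 and 3 read 10.75, 9.07 and 8.35 in log2 signal of Serpine2, adjacent samples 1, 2 and 3 read 10.23, 9.48 and 8.29, and normal bladders 1, 2 and 3 read 9.85, 9.76 and 10.20. The groups overlapped, with tumor 1 above the normal bladders and tumors 2 and 3 below them. The log2 fold change in tumors was -0.55 (SE 0.55, 95% confidence interval -1.84 to 0.75, adjusted p = 0.541 from limma), and without tumor 1 it was -1.23 (adjusted p = 0.00639). Leaving out that tumor thus brought both serpins past the threshold, while the 4 genes that rose were called with or without it. Gains of this kind were general, since 37.9% of all genes were called without tumor 1, against 23.5% with it.

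**Figure D3:**
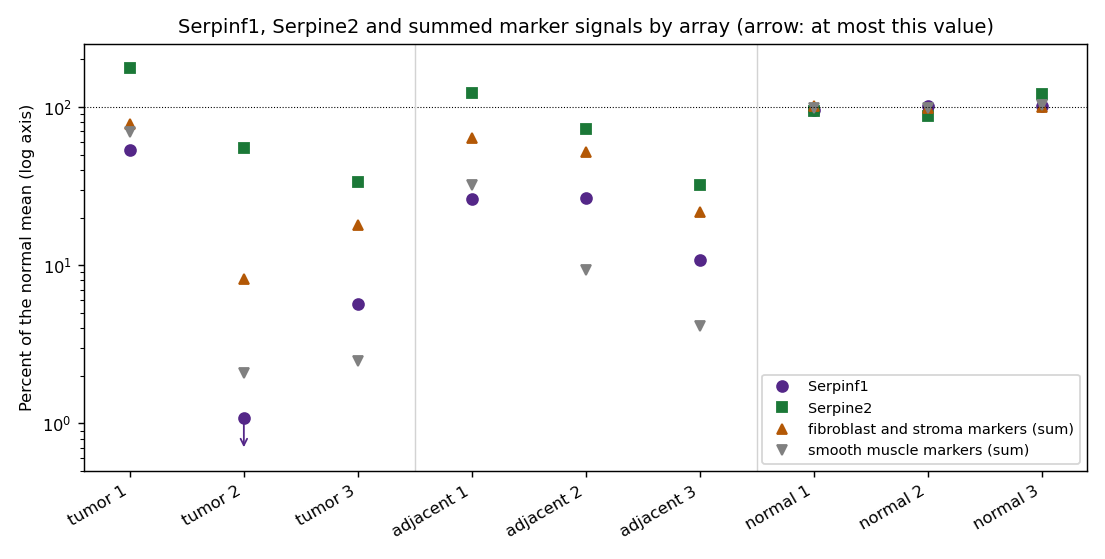
Signal of Serpinf1 and Serpine2 and summed signals of fibroblast and stroma markers and of smooth muscle markers on each of the 9 arrays, in percent of the mean of the 3 normal bladders (log axis). The arrow marks a dim signal shown at its upper bound. Serpinf1 stood at 53.4%, at most 1.08% and 5.65% in tumors 1, 2 and 3, and the stroma markers at 77.5%, 8.17% and 18.0%.

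Tissue adjacent to the tumors also had more Plau, Plat and Anxa2 than normal bladder, and less Serpinf1. On the brighter probe sets, 3 of the 6 genes rose (13.3% of all genes did) and 1 fell (11.5% of all genes), and these calls held without each array. Of the 9 probe sets, 4 rose (8.65% of all probe sets) and 1 fell (10.3%). The groups did not overlap for 4 members that were higher (24.8% of all genes) and 1 that was lower (21.9%). The median log2 fold change was 1.32 over the 6 members and 0.01 over all genes. By the test named in the methods, unadjusted and with a 2-fold limit, 4 members were called in tumors and 4 in adjacent tissue, each against normal bladder, and 0 in tumors against adjacent tissue, where it called 14.7%, 16.2% and 0.795% of all genes. The comparisons of adjacent tissue share the normal bladders with those of the tumors, so the 2 sets of values are not independent. Plau was 5.75-fold higher (log2 fold change 2.52, SE 0.41, adjusted p = 0.00546), and its dimmer probe set, at 2.24 (SE 0.66), did not pass (adjusted p = 0.0518, and 0.00487 without adjacent sample 1). Plat was 4.34-fold higher (2.12, SE 0.32, adjusted p = 0.00422). Anxa2 was 2.20-fold higher (1.13, SE 0.17, adjusted p = 0.00443) and 2.29-fold higher on its dimmer probe set (1.20, SE 0.25, adjusted p = 0.0152). The call of the dimmer probe set was lost without normal bladder 2 or 3 (adjusted p up to 0.0701).

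Serpinf1 fell to 19.6% of the normal level in adjacent tissue, with a mean log2 signal of 9.83 ± 0.74 there and 12.18 ± 0.05 for normal bladder (SD, n = 3 arrays each, log2 fold change -2.35, SE 0.33, adjusted p = 0.00321 from limma). In a fit of all 9 arrays, which applies the wide spread of the tumors to this comparison too, the adjusted p was 0.249. Plaur had a log2 fold change of 1.503 in adjacent tissue (SE 0.49), which did not pass (adjusted p = 0.0698). It passed after quantile normalization (adjusted p = 0.049), with arrays centred on their medians (0.0438) and without adjacent sample 1 (log2 fold change 2.12, adjusted p = 0.00116). Serpine2 did not pass in adjacent tissue (log2 fold change -0.60, SE 0.43, 95% confidence interval -1.61 to 0.40, adjusted p = 0.393).

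Tumors could not be told from the tissue beside them by any of these genes. All 9 probe sets overlapped between tumors and adjacent samples, as did all but 7.53% of probe sets and 7.06% of genes on the array. Of the members, 0 of 6 genes passed, and 0% of all genes and of all probe sets did (by limma; 845 of 31042 probe sets had an unadjusted p under 0.05). The intervals leave room for sizeable differences in either direction. Plau had a log2 fold change of 0.56 in tumors over adjacent tissue (95% confidence interval -0.64 to 1.76), Plaur 0.65 (-0.67 to 1.96), Plat 0.23 (-0.66 to 1.12) and Anxa2 0.33 (-0.24 to 0.91). That of Serpine2 was 0.06 (-1.53 to 1.64) and that of Serpinf1 -1.84 (-5.19 to 1.497). Within rats 1, 2 and 3, with samples paired by the numbers in their titles, tumor minus adjacent tissue was 0.43, 1.44 and -0.18 for Plau on the log2 scale. It was 1.26, 0.98 and -0.29 for Plaur and 0.15, 1.09 and -0.54 for Plat. For these 3 genes the tumors of rats 1 and 2 were higher than their surroundings, and that of rat 3 was lower. Anxa2 was higher in the tumor of all 3 rats on its brighter probe set (0.29, 0.57 and 0.14), but not on the dimmer one (-0.55, 0.25 and 0.045). Serpinf1 was higher in the tumor of rat 1 (1.02) and lower in those of rats 2 and 3 (-0.94 in rat 3), and with the dim tumor 2 set to the limit the difference in rat 2 was -4.62. With the rat as a block, the adjusted p was 0.919 for Plau, Plaur, Anxa2 and Serpinf1, 0.935 for Plat and 0.98 for Serpine2.

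On the brighter probe sets, the order of the mean signals was tumor, adjacent and normal, from high to low, for Plau, Plaur, Plat and Anxa2. On the dimmer probe set of Anxa2 the tumor mean (8.84) was under the adjacent mean (8.92). For Serpinf1 it was the reverse. For Serpine2 normal bladder came first, then tumor and adjacent tissue. The samples of tumor and adjacent tissue, neighbours in all these orders, overlapped for all 6 genes. The exact two-sided permutation test of single genes cannot go below 0.1 with 3 arrays against 3. It gave 0.1 for Plau, Plaur, Plat, Anxa2 and Serpinf1 in tumors and in adjacent tissue, each against normal bladder, and 0.5 for Serpine2 in both.

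Urokinase and tissue-type activator were also set against each other within each array, which cancels the array's scale. The log2 signal of Plau, on its brighter probe set, minus that of Plat came to -1.73, -1.27 and -1.13 in tumors 1, 2 and 3. Adjacent samples 1, 2 and 3 gave -2.02, -1.61 and -1.48, and normal bladders 1, 2 and 3 gave -1.88, -2.15 and -2.30. The level of this difference also reflects the 2 probe sets, so only its change between groups is read here. That change depends on the Plau probe set too. It was higher by 0.73 in tumors than in normal bladder (exact two-sided permutation p = 0.1, the smallest possible, groups not overlapping). It was higher by 0.40 in adjacent tissue than in normal bladder (exact p = 0.2) and by 0.33 in tumors than in adjacent tissue (exact p = 0.3). None of these passed 0.05, which 3 arrays against 3 cannot reach. The dimmer Plau probe set had log2 fold changes of 2.95 in tumors and 2.24 in adjacent tissue, beside 2.35 and 2.12 for Plat. With that probe set, Plau minus Plat was lower in tumor 1 than in normal bladders 1 and 2. The tumors and normal bladders then overlapped.

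Of 60 other genes, mostly of plasminogen activation, its receptors, inhibitors and clot proteins, 56 were measured. In tumors 8 rose and 6 fell against normal bladder (25% called, against 23.5% of all genes), and the median of their log2 fold changes was -0.02 (0.00 where dim genes are set to their bounds), against 0.05 over all genes. In adjacent tissue 7 rose and 7 fell (25%, against 24.8% of all genes), with a median of -0.10 (-0.09 with bounds), against 0.01. The list was thus called about as often as other genes. It also held genes outside the groups named, among them Plaa, called higher in both tissues, and Lrp6, called lower in tumors. Leaving out tumors 1, 2 and 3 in turn left 23, 9 and 5 calls in tumors (41.1%, 16.1% and 8.93% of the list, against 37.9%, 15.9% and 11.9% of all genes). Leaving out normal bladders 1, 2 and 3 left 4, 5 and 6 (7.14%, 8.93% and 10.7%, against 6.72%, 6.34% and 7.28% of all genes). In adjacent tissue, leaving out normal bladders 1, 2 and 3 left 8, 7 and 9 (14.3%, 12.5% and 16.1%, against 11.7%, 11.7% and 12.2% of all genes). Calls over all genes thus moved in number with those of the list.

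Plg itself, the plasminogen gene, had mean log2 signals under the dim limit in all groups (4.11 ± 1.11 in tumors, 3.73 ± 2.25 in adjacent tissue and 4.29 ± 1.44 in normal bladder), so no fold is given. Among inhibitors, Serpinb2 (plasminogen activator inhibitor type 2, which acts on both activators) read 11.999, 12.47 and 13.29 in tumors, 11.43, 12.88 and 13.74 in adjacent tissue and 0.00, 0.00 and 1.71 in normal bladder. Its signal was at least 123-fold higher in tumors (adjusted p = 0.000289) and at least 131-fold higher in adjacent tissue (adjusted p = 0.000268), taking 50 as the normal level. Serpini1 (neuroserpin, which inhibits tissue-type activator) did not pass in either tissue (-0.07, SE 0.23, in tumors and 0.52, SE 0.36, in adjacent tissue). Serpina5, the protein C inhibitor, was dim in all group means. Serpinf2, the main inhibitor of plasmin in blood, had group means of 5.62 in tumors, 5.43 in adjacent tissue and 4.06 in normal bladder, all under the limit. Of these inhibitors of the activators or of plasmin, Serpinb2 alone was called.

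Of the genes that bind plasminogen or clear the activators, Eno1 (a glycolytic enolase that also binds plasminogen at cell surfaces) rose in tumors (1.59, SE 0.16, adjusted p = 0.00306), and its difference in adjacent tissue did not pass (1.06, SE 0.35, adjusted p = 0.0767, and 0.00425 without adjacent sample 1). Plgrkt, a plasminogen receptor, did not pass in tumors (0.43, SE 0.27) or in adjacent tissue (-0.11, SE 0.30). Lrp1, which takes up activators bound to their inhibitors, did not pass either (-0.45, SE 0.25, in tumors and -0.63, SE 0.21, in adjacent tissue), but passed as lower without tumor 1 (adjusted p = 0.00244) and without adjacent sample 1 (0.0161). Vtn (vitronectin, which binds the urokinase receptor) and Pnpla2 (a lipase reported as a receptor of the Serpinf1 protein) did not pass in either tissue. Their log2 fold changes were -0.67 and 0.19 in tumors, and -0.41 and -0.18 in adjacent tissue.

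The remaining genes past the threshold in tumors included a surface protease and proteins of clots and adhesion. St14 (matriptase, a protease of epithelial membranes) had log2 fold changes of 1.63 in tumors (SE 0.19, adjusted p = 0.00387) and 1.59 in adjacent tissue (SE 0.19, adjusted p = 0.00178). Clec3b (tetranectin, which binds plasminogen) had -4.64 in tumors (SE 1.17, adjusted p = 0.0355) and -3.74 in adjacent tissue (SE 0.59, adjusted p = 0.00518). F13a1, the factor that crosslinks fibrin, had -4.02 in tumors (SE 0.95, adjusted p = 0.0297) and -3.56 in adjacent tissue (SE 0.64, adjusted p = 0.00834). Itgb3, an integrin chain, had -2.62 in tumors (SE 0.58, adjusted p = 0.0242) and -2.40 in adjacent tissue (SE 0.25, adjusted p = 0.00115). These 3 genes were highest among tumors in tumor 1 (log2 signals of 10.57, 8.89 and 10.10), and each lost its tumor call without tumor 2 or 3 or any 1 of the normal bladders (adjusted p up to 0.116). In adjacent tissue, all 3 calls held without each array. Tfpi2, which inhibits plasmin, rose in adjacent tissue (1.37, SE 0.32, adjusted p = 0.0238), a call lost without adjacent sample 3 or any 1 of the normal bladders (up to 0.0863), and did not pass in tumors (0.42, SE 0.49).

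**Figure D4:**
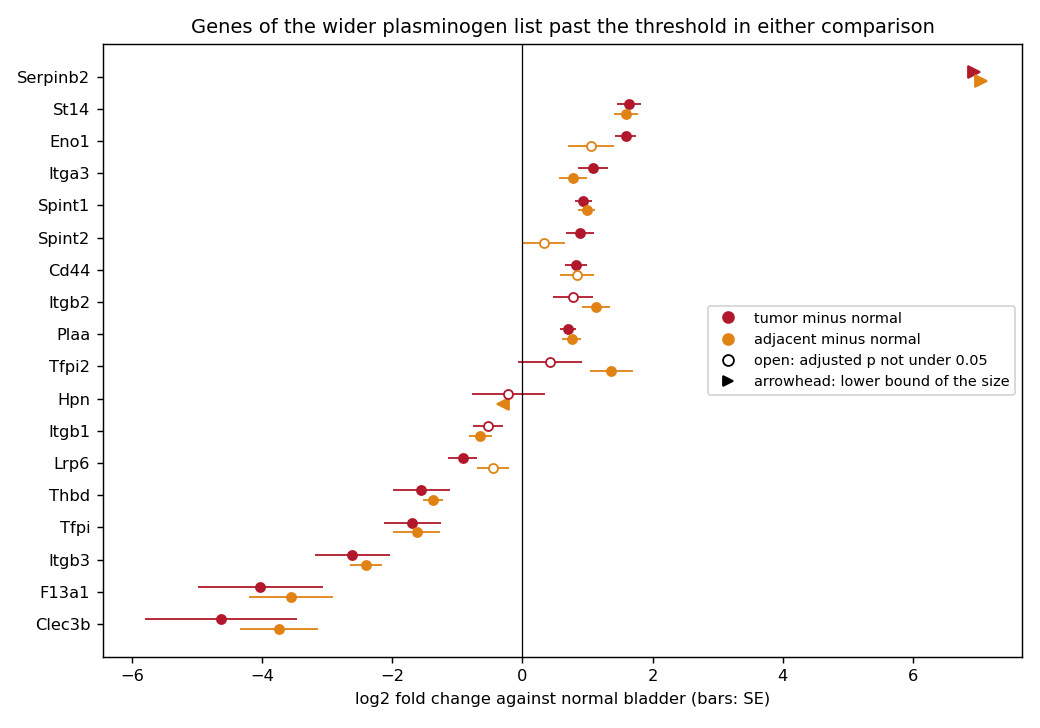
Log2 fold change against normal bladder (horizontal axis, bars show SE, n = 3 arrays per group) in tumors (red) and adjacent tissue (orange) for genes of the wider plasminogen list past an adjusted p of 0.05 in either comparison. Open points were not called, and arrowheads give lower bounds where the lower group was dim, as for Serpinb2, at least 123-fold higher in tumors.

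To describe each member's pattern, all 11075 other genes with a mean signal of at least 50 were ranked by how closely their log2 signals followed it over the 9 arrays. The measure is the root mean square difference after each gene's mean was subtracted, where 0 is identity. Plau was followed most closely by Fosl1, which codes for an AP-1 subunit (0.23, against a median of 1.45 over all genes), then by Melk, a kinase of dividing cells, and Chdh, a choline dehydrogenase (0.25 each). All 3 normal bladders were dim for Fosl1 (5.33, 5.62 and 5.38), Melk (5.08, 5.25 and 5.03) and Chdh (5.46, 5.638 and 4.96). Their closeness to Plau thus rests in part on dim signals. Plaur was followed by Cd24, a surface glycoprotein (0.21, median 1.10), Padi1, a peptidylarginine deiminase of epidermis, and Itgb4, the integrin chain of hemidesmosomes (0.29 and 0.30). Plat was followed by Pvr, an adhesion protein (0.18, median 1.14), Mapk13, a stress-activated kinase, and Bdh1, an enzyme of ketone bodies (0.23 and 0.24). Anxa2 was followed by Atp1b3, a subunit of the sodium pump (0.11, median 0.71), Cenpk, a centromere protein (0.12), and Pacsin3, a membrane-shaping adaptor (0.13).

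The serpins had other neighbours in this ranking. Serpine2 was nearest to Hspb1, a small heat shock protein (0.24, median 0.89), C13h1orf115 (0.27) and Mmrn2, a protein of the vessel wall (0.28). Serpinf1 was nearest to Eln, the elastin gene (0.27, median 2.39), Matn2, a matrix matrilin (0.37), and Adam33, a metalloprotease of mesenchymal cells (0.39). Eln read 8.65, 1.85 and 5.29 in tumors 1, 2 and 3, 8.10, 7.39 and 6.23 in adjacent tissue and 9.40, 9.84 and 9.07 in normal bladder. It was thus lowest in tumor 2, as Serpinf1 was, and both were dim there. Eln was also dim in tumor 3, Matn2 in tumor 2 (4.57) and Adam33 in tumor 2 and adjacent sample 3 (2.16 and 5.54). The closeness of these 3 genes to Serpinf1 thus rests in part on dim signals. Between members, Plat stood at place 23 in the ranking for Plau, Plaur at 115 and Anxa2 at 322, whereas Serpine2 and Serpinf1 stood at 9848 and 10983 of 11075. The points share arrays and rats, so these values are descriptions only.

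**Figure D5:**
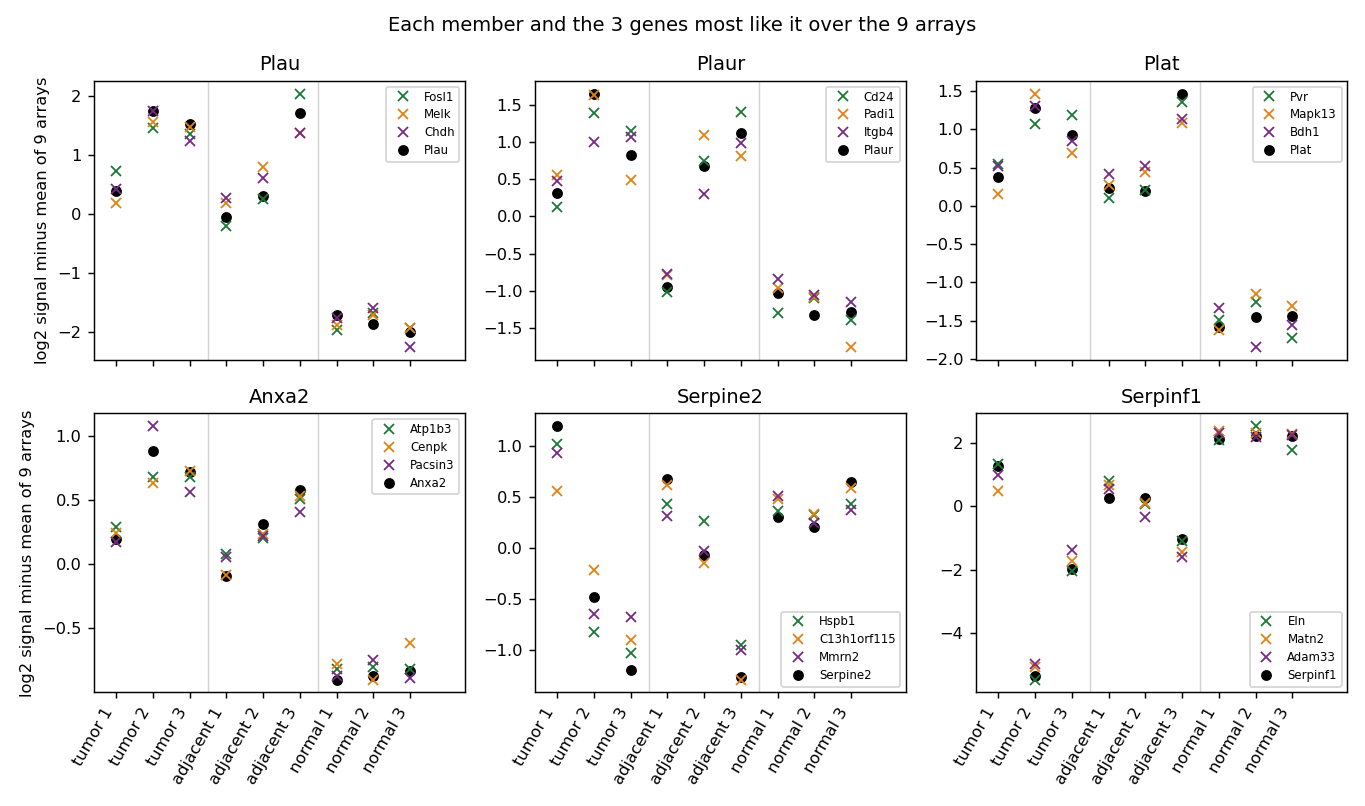
Log2 signal minus the mean of the 9 arrays (vertical axes) for each member (black points) and the 3 genes most like it (crosses) on each array. For Serpinf1, Eln, Matn2 and Adam33 were lowest in tumor 2, while for Plau the 3 normal bladders were lowest.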

How the data were processed

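RNA of 9 rat bladder samples was labelled by in vitro transcription and hybridized to Affymetrix arrays. The authors normalized the arrays with the MAS5 algorithm, and deposited log2 signals. With 2% of values trimmed from both ends, each array had a mean linear signal of 500.1 to 500.2. No further scaling was added. The genome build does not apply, and no other aligner or caller is named in the sources used here.

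The 57 array controls were left out. Of 31042 probe sets, 20826 are named with 1 gene, 436 with several and 9780 with none here, and the brightest probe set stood for each gene. R 4.3.3 and limma 3.58.1 (lmFit, eBayes with a variance trend) were used for each pair of groups by itself, with Benjamini-Hochberg adjustment over all probe sets and a threshold of 0.05. The script was tested on simulated data. Signals under 50 were called dim, a limit set with the spread known: the SD of replicates had a median of 1.02 between log2 4 and 5, against 0.251 between 9 and 10. Where all arrays of the lower group were dim, the fold is a bound against 50. The number of arrays limits the precision.

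The members and gene lists were chosen with earlier results of these data known. Named genes are the members, the listed genes that bind or inhibit one (where measured), the 3 highest and 3 lowest called genes of the wider list and the 3 genes most like each member. Marker lists for T cells, macrophages, mast cells, Schwann cells, adipocytes, mesothelium and skeletal muscle were summed too. In tumors their sums ranged over 89.3% to 148%, 124% to 157%, 56.8% to 266%, 29.7% to 66.2%, 58.6% to 142%, 145% to 755% and 22.9% to 76.1% of the normal mean, in that order. In adjacent samples they ranged over 150% to 197%, 129% to 206%, 88.9% to 564%, 23.9% to 50.6%, 68.3% to 84.7%, 31.9% to 221% and 31.3% to 33.2%.

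The series design says that tumors and adjacent tissues are paired, and the titles number them. Deviations from the group means correlated between same-numbered tumors and adjacent samples (Pearson's r of 0.523, 0.128 and 0.378 over 20418 probe sets of at least the dim limit). Tumor 2, however, correlated more with adjacent sample 3 (0.272) than with adjacent sample 2, so this check does not settle the pairing of rat 2. The numbers were taken to pair the samples because of the design and the titles. Alternatives were quantile normalization, median centring, a filter at the 40th percentile, 50 added to the signal, no variance trend, fitting all arrays together, a replicate block, averaged probe sets per gene, the test named in the methods and leaving out each array.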

Additional observations from a re-analysis of the deposited data

How the results depend on the processing

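The 4 genes that rose in tumors kept direction and call under all alternatives run but the methods' t-test after adjustment, where Plaur missed the threshold (adjusted p = 0.065). In adjacent tissue, that adjusted test called 0 of the 6 members, where limma called 4, and its unadjusted form with a 2-fold limit called 4 (16.2% of all genes). The share of all genes that the adjusted test called is not given here, so its count of 0 does not single out the members. Without a variance trend, 5 genes of the wider list were called in tumors and 9 in adjacent tissue, where 14 and 14 were called with it. The share of all genes called without the trend is not given here, so these counts do not single out the list. Leaving out 1 array gave 4 to 23 calls of that list in tumors and 7 to 18 in adjacent tissue (6.34% to 37.9% and 11.7% to 29.5% of all genes in the same fits), 4 to 6 and 4 to 5 member calls, and 0 in tumors against adjacent tissue. The difference of Plau minus Plat kept its sign under all alternatives run.

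Centring on medians moved the median of all probe sets from -0.05 to 0.15 in tumors and from -0.09 to 0.12 in adjacent tissue, each against normal bladder, and turned no member's direction there. Between tumors and adjacent tissue, directions turned for uncalled values. With 1 array left out, the dimmer Plau probe set ranged from -0.032 (without adjacent sample 1) to 1.47, and that of Plaur from -0.37 (without adjacent sample 2) to 1.28. The dimmer Anxa2 probe set ranged from -0.31 to 0.21 (above 0 without tumor 1, and at 0.084 without adjacent sample 3), and Serpine2 from -0.62 (without tumor 1, and -0.47 without adjacent sample 3) to 0.58. The cause was not tested.

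With the replicate number as a block, 4 members were called in tumors and 4 in adjacent tissue against normal bladder, and 12 and 13 genes of the wider list, with 0 between tumors and adjacent tissue. Of all 31042 probe sets, these block fits called 3705 in tumors and 4717 in adjacent tissue against normal bladder, and 0 between tumors and adjacent tissue. The dimmer Anxa2 probe set lost its call in tumors (adjusted p = 0.104), and no other member's call changed. Against normal bladder the numbers name different rats. Same-numbered deviations there correlated at -0.0645 to 0.0471.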
